A study of Macaca fascicularis with 2 samples.

Results

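Apolipoproteins carry lipids through the fluid outside cells and dock lipoprotein particles on receptors at the cell surface. Lipases such as *LPL* split the triglycerides of these particles, transfer proteins such as *PLTP* move phospholipids between them, and receptors such as *LRP1* take them up. The nucleus pulposus (NP) of the intervertebral disc and the articular cartilage (AC) have no or very few blood vessels, so lipids reach their cells by diffusion through the matrix. The NP of young animals holds large vacuolated notochordal cells (NCs), which derive from the embryonic notochord, beside chondrocyte-like cells.

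The genes described here are *APOE*, *APOD*, *CLU*, *LPL*, *PLTP* and *LRP1*, which are 6 of 7 listed members and 6 of the 21371 genes in the count table. The other listed member, *APOC1*, was not analysed here because the table used has no row with its symbol. They were taken by name, with earlier results of these data known. The study profiled single cells of NP and AC from cynomolgus monkeys by TAS-seq, which captures the RNA of each cell on barcoded beads and amplifies it. The labels give male wild-type animals, 3 years old, and name 3 tissue samples in the pool. By the study's description these were the AC and the NP of 1 animal and the AC of another. Cells of each tissue sample were marked with a DNA tag, stained, sorted as living tagged cells and pooled into 1 library. The cells carry 4 tags, A951 to A954, which the labels do not pair with tissues, so the tags are described separately and no cell is called AC or NP.

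The library held 5723 cells, of which 5674 carried 1 tag, 42 were doublets and 7 had no tag. The tagged cells numbered 997, 1132, 1383 and 2162 for A951, A952, A953 and A954, and no cell number was shared between tags. Cells with at least 5 reads of *KRT19* and at least 5 reads of *TBXT* were taken as NCs, and all the rest are called other cells. The 310 NCs were 5.46% of the tagged cells (95% exact binomial interval, 4.89 to 6.09). A952 held 236 of them (20.9% of its cells), A951 held 67 (6.72%), A953 held 5 and A954 held 2. Median depth per cell was 186371 reads and 4061 genes in the NCs, and 198675 reads and 3816 genes in the 5364 other cells. Levels are the reads of a gene added up over a group of cells per 1000000 reads of those cells (rpm). With 1 library, cells and tags are not replicates, so no statistical test was made and no spread over animals can be given. All intervals are exact 95% intervals for counting error only, and they are too narrow because reads and not molecules were counted.

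The label of the NCs was checked against markers that the gate did not use. Of 11 notochordal markers, 7 were in the table, and the 5 read often enough to compare were all higher in NCs, with *KRT19* and *TBXT* fixed by the gate. *CDH2*, a cadherin, was at 119.6 rpm in NCs and 1.16 rpm in other cells. *NCAM1*, an adhesion molecule, was at 506 against 25.2 rpm, and *SHH*, a ligand of the hedgehog pathway, at 98.7 against 0.846 rpm. The notochordal transcription factor genes *FOXA2* and *NOTO* went the other way, at 0.908 against 5.46 rpm and 0.0151 against 0.0524 rpm. Both were scarce in either group. Of 9 chondrocyte markers, *ACAN* and *SOX9* were higher in NCs and the other 7 were lower, among them *COL2A1* at 1269 against 20076 rpm. Macrophages are a well-known source of *APOE*. The summed level of 10 macrophage markers was 23.9 rpm in NCs and 22.6 rpm in other cells, with *CD68* the most abundant in either group at 9.64 and 17.4 rpm. *C1QA*, *C1QC* and *CD163* each stayed under 0.1 rpm in NCs, and *AIF1* had no read there. *LYZ* and *CD14* were higher in NCs, at 5.21 against 0.714 rpm and 7.46 against 3.14 rpm, but 492 of the *CD14* reads in NCs were from A952. Mural cell markers summed to 80.1 rpm in NCs and 11.7 rpm in other cells, mostly from *ACTA2*. Of the other mural markers, *RGS5* was higher in NCs, at 8.45 against 3.01 rpm, and *MYH11* was lower, at 0.95 against 2.16 rpm. By tag the mural sums in NCs were 5.82 rpm for A951, 101.1 for A952, 2.65 for A953 and 98.9 for A954, against 13.5, 11.3, 9.49 and 12.5 rpm in other cells. Under A954 the sum in NCs came mostly from 25 *ACTA2* reads in 2 cells. The part of macrophages and mural cells in the values below was not tested.

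*APOE*, the ligand that carries lipoprotein particles to their receptors, had the largest difference of the 6 genes when the tags were pooled. It was at 10894 rpm in NCs and 141.7 rpm in other cells, 76.9-fold higher. By tag the difference ran from 23.7-fold for A952 to 153-fold for A954. *APOD*, a lipocalin that binds small lipids such as arachidonic acid, went the opposite way at 11.5 against 212 rpm, 18.5-fold lower. Among A951, A952 and A953 the difference ran from 2.55-fold lower for A953 to 33.6-fold lower for A952. Under A954 *APOD* was at 3.80 against 189.7 rpm, but with 1 read in 2 NCs its fold is not given. Under A952 *APOD* thus differed more than *APOE*. With a gate of 1 read of each gene the log2 ratio of *APOD* was -2.02, against -4.21 here. *CLU*, also called apolipoprotein J and known as an extracellular chaperone, was at 3415 against 9731 rpm, 2.85-fold lower. *LPL*, *PLTP* and *LRP1* were within 2-fold. Thus 1 of the 6 genes was at least 2-fold higher and 2 were at least 2-fold lower in NCs. The count for *CLU* depended on the gate, with a log2 ratio of -0.87 when 1 read of each gate gene was asked for, and on the tag, with 2.02-fold for A951, 2.43-fold for A952, 1.76-fold for A953 and 3.84-fold for A954. The 9961 genes compared were those read in 10% or more of the NCs or of the other cells. Of them, 24.4% were at least 2-fold higher and 11.4% at least 2-fold lower in NCs. The median log2 ratio of the 6 genes was -0.73, and that of all genes compared was 0.30. When the ratios were centred on the median of all genes, *LPL* also passed 2-fold, with a log2 ratio of -1.22. *LPL* passed it as well without A951, at -1.46, and without A954, at -1.06, and *PLTP* did without A952, at -1.08. The same centring changed the split of all genes past 2-fold from 2435 higher and 1133 lower to 1723 higher and 1565 lower.

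*APOE* was high in NCs under every tag. Its level in NCs was 7392 rpm for A951, 11955 for A952, 5895 for A953 and 9496 for A954. In other cells it was 133.5 rpm for A951, 504 for A952, 84.7 for A953 and 62.1 for A954. The lowest NC level of a tag was thus above the highest level in other cells, which was that of A952, the tag with most NCs. Within NCs the level per cell ran from 341 rpm to 33276 rpm, with a median of 10832 rpm and quartiles of 6994 and 14959 rpm. The median NC was at 7098 rpm for A951, 11761 for A952 and 4121 for A953, and the 2 NCs of A954 were at 9119 and 11324 rpm. Every NC held at least 68 reads of *APOE*. In other cells the median was 9.30 rpm and the highest cell was at 24967 rpm, so single cells of the groups overlapped. The median other cell lay between 8.92 rpm for A954 and 10.2 rpm for A951, so the higher pooled level of A952 came from its upper end. The log2 ratio was 6.26 (95% interval, 6.26 to 6.27), the 49th highest of the 9961 genes. These pooled values mix tags unequally, since A951 and A952 held most NCs and A953 and A954 most other cells, and within A951 and A952 *APOE* was 55.4-fold and 23.7-fold higher. The 5 genes highest in NCs were *TBXT*, *CAVIN2*, *CHRM3*, *KRT19* and *TBPL2*, of which *TBXT* and *KRT19* define the gate. The 5 genes lowest in NCs were *COX4I2*, *OMD*, *IL17B*, *ASPN* and *CXCL1*.

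**Figure D1:**
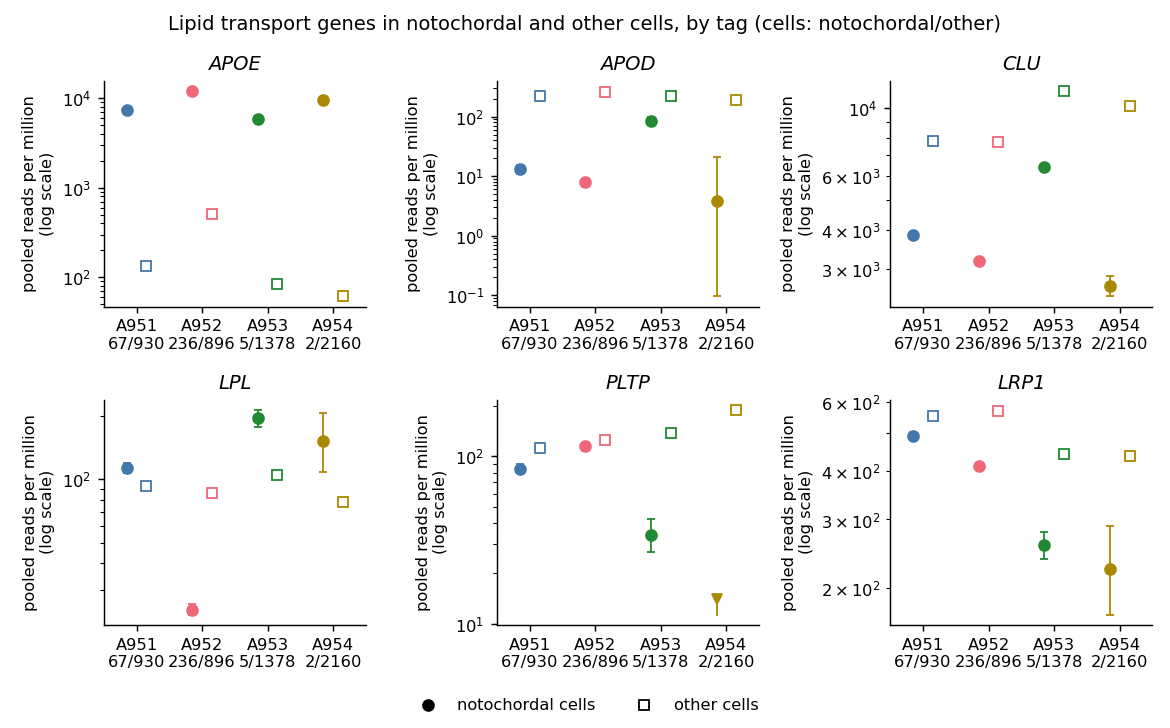
Pooled level of each gene in NCs (filled circles) and other cells (open squares) for the 4 tags, in rpm on a log scale that differs between panels; bars are exact 95% counting intervals, a triangle marks the upper limit where no read was found, and cell numbers stand under each tag. *APOE* was higher and *APOD* and *CLU* lower in NCs under all 4 tags, whereas *LPL* was lower in NCs under A952 only.

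*APOD* and *CLU* were lower in NCs than in other cells under every tag. *APOD* in NCs was at 13.0 rpm for A951, 7.87 for A952, 85.5 for A953 and 3.80 for A954, the last from 1 read. In other cells *APOD* lay between 189.7 rpm for A954 and 264 rpm for A952. It was unevenly spread over the other cells, with a median of 7.10 rpm, an upper quartile of 101 rpm and a highest cell at 24206 rpm. At least 1 read of *APOD* was found in 47.4% of NCs and 69.0% of other cells, and at least 5 reads in 4.19% and 33.4%. With each cell thinned to 50000 reads, which kept 299 NCs and 5159 other cells, the shares with a read were 19.4% and 44.7%.

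The 5 NCs of A953 stood apart in *APOD*. Their median depth was 494207 reads and 6612 genes, against 196196 reads and 3808 genes in the other cells of that tag. They also held *PRG4*, a gene of superficial cartilage cells, at 16346 rpm. It was at 431 rpm in the NCs of A952 and 16322 rpm in the other cells of A953. The 4 proliferation markers of these NCs summed to 619 rpm, against 36.9 rpm in all NCs and 18.1 rpm in the other cells of A953. Whether more than 1 cell shared a barcode there was not tested. The log2 ratio of *APOD* was -4.21 with all tags, -4.57 without A953 and -3.08 without A952.

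*CLU* was read in all 5674 cells. Its level in NCs was 3857 rpm for A951, 3182 for A952, 6405 for A953 and 2636 for A954, and in other cells 7804, 7722, 11293 and 10132 rpm in the same order. The highest NC level, from the 5 cells of A953, was below the lowest level in other cells. Single cells overlapped widely, with 348 to 28490 rpm in NCs and 152 to 127049 rpm in other cells. The medians per cell were 2659 and 6973 rpm.

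*LPL*, the lipase, gave no common direction across tags. Its level in NCs was 113 rpm for A951, 24.1 for A952, 194 for A953 and 152 for A954, against 93.2, 86.5, 104.4 and 77.9 rpm in other cells. NCs were thus lower under A952 and higher under the other tags, and the pooled log2 ratio of -0.92 became 0.51 without A952. At least 1 read was found in 38.7% of NCs and 47.4% of other cells, and at 50000 reads per cell in 20.4% and 35.3%. In either group the median cell had no *LPL* read, and the level came from a minority of cells. *LPL* is also an adipocyte marker, and the part of such cells was not tested. Of the other adipocyte markers, *ADIPOQ*, *LEP* and *FABP4* were each under 0.2 rpm in either group, *CIDEC* was at 0.136 rpm in NCs and 0.429 rpm in other cells, and *PLIN1* was at 6.93 rpm in NCs and 3.85 rpm in other cells.

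*PLTP*, the phospholipid transfer protein, was at 106 rpm in NCs and 155 rpm in other cells (log2 ratio, -0.54). By tag it was at 84.5 rpm for A951, 115 for A952 and 34.0 for A953 in NCs, and no read was found in the 2 NCs of A954, which allows up to 14.0 rpm. In other cells the levels were 112, 125, 139 and 189 rpm in the order of the tags. At least 1 read was found in 59.0% of NCs and 63.2% of other cells, at 50000 reads per cell in 36.1% and 44.3%. The median cell was at 4.95 and 6.14 rpm, and the upper quartiles were 25.8 and 110.0 rpm. Under A951 and A952, which held nearly all NCs, the groups differed by less than 1.5-fold.

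*LRP1*, the large endocytic receptor that takes up particles carrying *APOE*, differed least when the tags were pooled. It was at 421 rpm in NCs and 476 rpm in other cells, with a log2 ratio of -0.18 (-0.19 to -0.16). Under A952 *PLTP* differed less, by 1.085-fold against 1.384-fold for *LRP1*. With a gate of 1 read of each gene *PLTP* also differed less, at a log2 ratio of -0.15 against -0.27 for *LRP1*. In NCs *LRP1* was at 492 rpm for A951, 412 for A952, 258 for A953 and 224 for A954. In other cells it was at 554 rpm for A951, 570 for A952, 443 for A953 and 437 for A954. Each tag had the lower level in NCs. At least 1 read was found in 92.3% of NCs and 93.4% of other cells, and the median cell was at 257 and 333 rpm. The receptor was therefore read in most cells of either group, while its ligand *APOE* differed 76.9-fold in level.

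Outside the NCs, *APOE* reads were concentrated in few cells. Of the 5364 other cells, 1141 had no *APOE* read, 1146 had 1 read, 1839 had 2 to 4, 585 had 5 to 9, 326 had 10 to 99, 295 had at least 100 but fewer than 1000, and 32 had 1000 or more. At least 1 read was thus found in 78.7% of other cells, at 50000 reads per cell in 43.2%. The 653 cells with 10 or more reads (12.2%; 95% exact binomial interval, 11.3 to 13.1) held 94.6% of all *APOE* reads of the group. The 32 cells with 1000 or more reads held 40.2%, and 25 of the 32 carried A952. The share of cells with 10 or more reads was 13.1% for A951, 17.5% for A952, 10.0% for A953 and 10.9% for A954. In the NCs, 309 of 310 cells had at least 100 reads and 232 had at least 1000.

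Low *APOE* counts were found in other cells of every tag. At least 1 read was found in 78.3% of the other cells of A951, 75.8% of A952, 77.0% of A953 and 81.3% of A954. The tags were pooled before capture, so this bears on neither free RNA nor expression. In the same 5364 cells, at least 1 read of *TBXT* was found in 10.4% and of *KRT19* in 10.6%. These shares cannot be set against that of *APOE*, because both genes define the gate. They were also less abundant in NCs, at 890 and 1098 rpm against 10894 rpm for *APOE*. *C3orf49*, an NC gene at 2274 rpm in NCs, had at least 1 read in 32.5% of the 5279 other cells with fewer than 5 reads of each gate gene. Reads of free RNA from NCs could not be told apart from low expression in these counts, so 1 to 9 reads are not read as expression here.

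**Figure D2:**
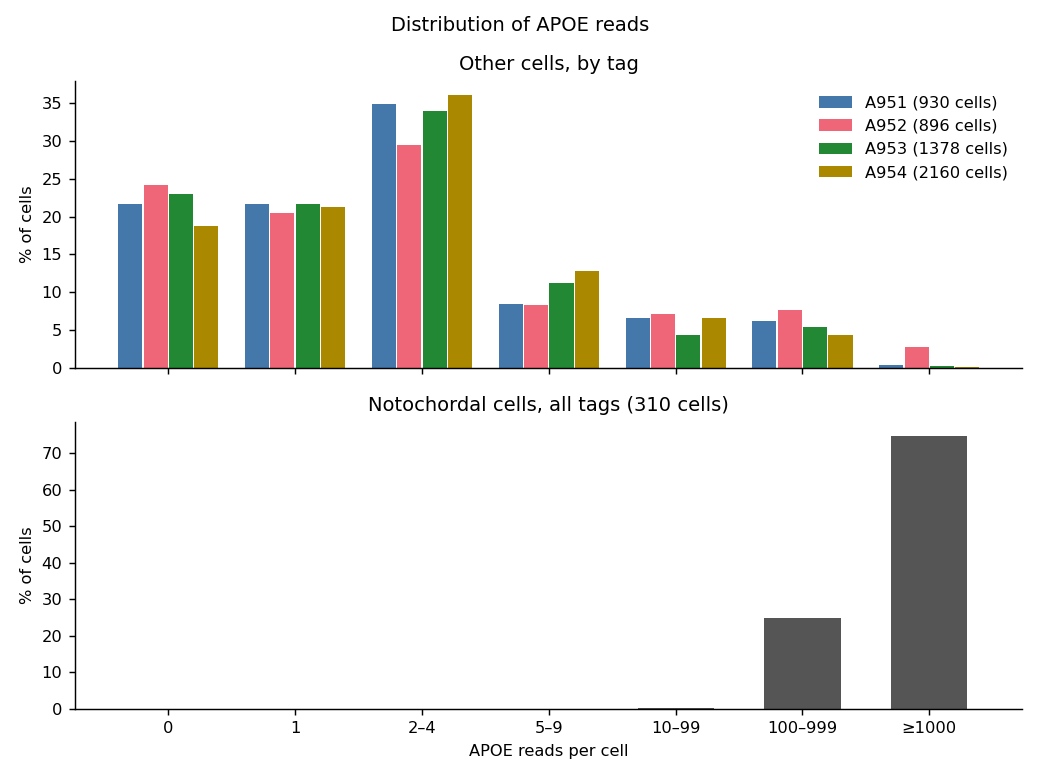
Share of cells in bins of *APOE* reads per cell, for the other cells of each tag (upper panel, coloured bars) and for all NCs (lower panel). Most other cells held fewer than 10 reads under each tag, a smaller group held at least 100 but fewer than 1000, and A952 alone had more than 1% of its other cells at 1000 or more.

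Other cells were then described in 2 classes. Cells of the first class held 5 or more reads of 1 of the gate genes but not of both. These 85 cells, 46 of them with A952, held 40.5% of all *APOE* reads outside the NCs, and 54 of the 85 had at least 10 *APOE* reads. Their *APOE* level was 8914 rpm for A952 and 3704 rpm for A951, against 11955 and 7392 rpm in the NCs, but 4.01 rpm for A953 and 166 rpm for A954. *KRT19* passed 5 reads in 53 of the 85 cells and *TBXT* in 32. Their median depth was 143786 reads, against 186371 in NCs, and 47 of the 85 fell into the cluster of the NCs described below.

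Cells of the second class held fewer than 5 reads of each gate gene and at least 100 reads of *APOE*. There were 278 such cells among 5279, namely 5.88% of A951, 6.47% of A952, 5.70% of A953 and 4.25% of A954. The order of the tags was that of their shares of NCs, but the 95% exact binomial interval of A951, 4.45 to 7.60%, took in the values of A952 and A953. *KRT19* and *TBXT* were low in them by choice. Of the notochordal markers outside the gate, *CDH2* was at 0.891 rpm, *NCAM1* at 25.1 rpm and *SHH* at 0.361 rpm, against 0.885, 20.9 and 0.375 rpm in the 4680 cells with fewer than 10 *APOE* reads. Their median *APOE* level was 856 rpm. The limits of 100 and 10 reads were chosen after the values were seen, and what follows is a description of cells grouped by their *APOE* reads.

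Of the cartilage markers, *CNMD* and *PRG4* differed widely between cells of the second class and cells with few *APOE* reads. *CNMD*, which encodes chondromodulin, an inhibitor of vessel growth in cartilage, was at 786 rpm in them and 115 rpm in the cells with few *APOE* reads, 6.81-fold higher. It was higher under each tag, by 5.32-fold for A951, 4.44-fold for A952, 13.9-fold for A953 and 3.85-fold for A954. *COL9A1* and *COL2A1*, which encode cartilage collagens, were at 9172 against 4783 rpm and 26911 against 19283 rpm, both within 2-fold. Under A953 *COL9A1* was 2.79-fold higher. Its log2 ratio over all tags also passed 2-fold with a limit of 300 *APOE* reads, at 1.12, and without A954, at 1.07. *SOX9*, the chondrocyte transcription factor gene, was at 279 against 344 rpm. *PRG4*, which encodes the lubricant of joint surfaces, was at 2324 against 13890 rpm, 5.98-fold lower, and under each tag at least 4.57-fold lower. *CRTAC1* was 7.12-fold lower.

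Among the lipid genes, *CLU* was at 4794 rpm in these cells and 10463 rpm in the cells with few *APOE* reads. It was lower under each tag, by 1.68-fold for A954 to 3.27-fold for A953. *LPL* was higher by 1.34-fold, *LRP1* by 1.24-fold and *APOD* by 1.20-fold, and *PLTP* was lower by 1.43-fold, all within 2-fold. *LPL* turned to a log2 ratio of -0.11 with a limit of 300 *APOE* reads, and *APOD* to -0.06 with a limit of 20. *APOD* and *LRP1* went the other way under A952, at 179.7 against 285 rpm and 568 against 583 rpm. The cells with high *APOE* were deeper, with a median of 253562 reads against 192595. When cells at 500 rpm or more were set against those under 50 rpm, the log2 ratios were 2.60 for *CNMD*, -2.81 for *PRG4* and -1.01 for *CLU*, close to 2.77, -2.58 and -1.13 with limits in reads.

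**Figure D3:**
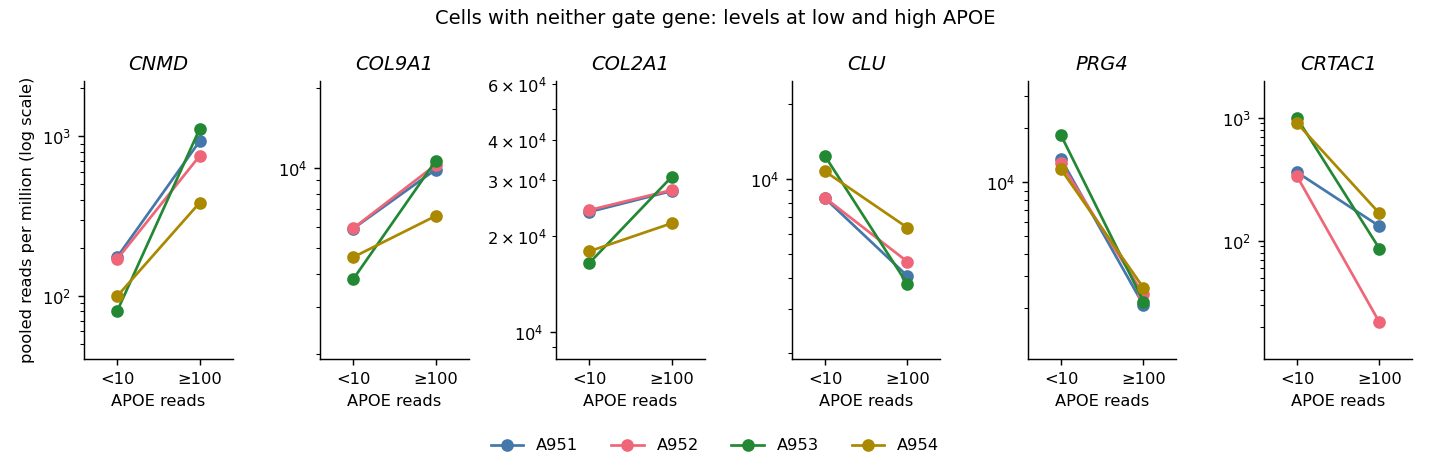
Pooled levels of 6 genes, in rpm on log scales, in cells with fewer than 5 reads of each gate gene that held fewer than 10 (left) or at least 100 (right) *APOE* reads, with 1 line for each tag. *CNMD*, *COL9A1* and *COL2A1* were higher and *CLU*, *PRG4* and *CRTAC1* lower at high *APOE* under all 4 tags.

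The levels were then followed over clusters of cells, formed within this library alone, without the integration over libraries that the study made, and with the 6 genes kept out of the variable genes. Clusters are given by number and leading genes. Cluster 4 held 309 of the 310 NCs together with 66 other cells, in which *APOE* was at 4770 rpm, from 9.19 rpm in the 4 cells of A953 to 8072 rpm in the 47 cells of A952. Apart from it, *APOE* was highest in cluster 5, which numbered 166 cells and was led by *IL17B*, *NPVF* and *IBSP*. There it was at 344 rpm, and 59 cells (35.5%) had at least 100 reads. All 4 tags showed this, with 294, 324, 465 and 173 rpm in their order. Cluster 5 also had the lowest *CLU* of the 6 clusters, at 1212 rpm, pooled and under each tag. Its *LPL*, at 140.0 rpm, was the highest pooled level, but cluster 4 was higher under A953 and A954.

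Cluster 0, with 2831 other cells led by *THBS4*, *CP* and *EPHA5*, had the highest *APOD*, at 326 rpm, pooled and under each tag. Its *LRP1* was at 621 rpm, but cluster 3, at 526 rpm when pooled, was higher under A951, A952 and A953. Its *APOE* was at 109.8 rpm. At a finer resolution of 0.5, *APOD* reached 589 rpm in 1 cluster. Cluster 1, with 1188 cells led by *IGFBP5*, *MYOC* and *CD74*, had the highest pooled *PLTP*, at 228 rpm, beside *CLU* at 12668 rpm and *APOE* at 29.7 rpm. *PLTP* was highest there under A951 and A954, whereas cluster 3 was higher under A952 and clusters 2, 3 and 4 under A953. Cluster 2, with 569 cells led by *MSMP*, *CYP1B1* and *LUM*, had *CLU* at 13612 rpm, the highest pooled level, which held under A953 and A954 but not under A951 and A952. The cells of cluster 2 were the shallowest, with a median of 67175 reads, whereas those of cluster 1 had 340986. At the resolution of 0.5, *CLU* was highest in a cluster of 906 cells, at 15592 rpm, and a cluster of 597 cells was at 13432 rpm. Cluster 3, with 523 cells led by *FOS*, *PFKFB4* and *ID1*, had *CLU* at 11446 rpm and *LPL* at 62.3 rpm.

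Most of the 278 cells of the second class lay in cluster 0 (174 cells, 62.6%) and cluster 5 (58 cells, 20.9%), although cluster 5 was small. Of the clustered cells with few *APOE* reads, 53.0% lay in cluster 0 and 1.65% in cluster 5. Within cluster 0, the cells with high *APOE* had 3.86-fold more *CNMD*, 4.24-fold less *PRG4* and 1.22-fold less *CLU* than those with few *APOE* reads. Within cluster 5, *CNMD* differed by 1.10-fold and was at 1573 and 1426 rpm, *PRG4* was 1.95-fold higher at high *APOE* and *CLU* was 1.60-fold lower. *COL2A1* was at 24772 against 23929 rpm within cluster 0 and 29693 against 32158 rpm within cluster 5. *COL9A1* was at 6583 against 6070 rpm within cluster 0 and 14336 against 10627 rpm within cluster 5. Within cluster 1, which held 29 cells of high *APOE*, *COL2A1* was at 26605 against 14148 rpm, *COL9A1* was 1.93-fold higher, *CNMD* 2.47-fold higher, *PRG4* 3.05-fold lower and *CLU* 1.98-fold lower. The *CLU* difference between the classes was thus smaller inside each of these clusters than over all cells.

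**Figure D4:**
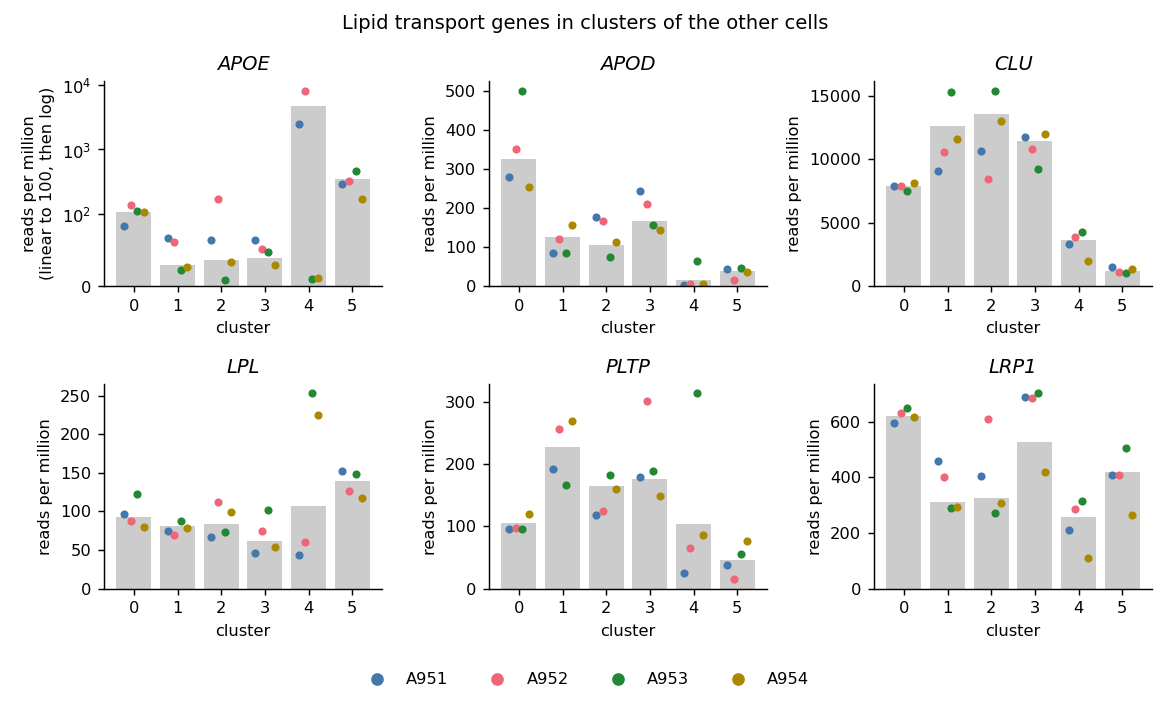
Level of each gene in the other cells of clusters 0 to 5, in rpm; grey bars pool the tags and dots give each tag, and the *APOE* axis is linear to 100 and logarithmic above. Pooled over tags, *APOE* was highest in clusters 4 and 5, *CLU* lowest in cluster 5 and *PLTP* highest in cluster 1, and in cluster 4 the *APOE* of A953 and A954 was near 10 rpm.

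Over single cells, correlations with other genes were computed for *APOE*, *CLU*, *APOD* and *PLTP*, and were weak. These correlations of sparse counts within 1 library are a description. Across NCs, the genes most like *APOE* were *CD164*, *SLC44A2* and *OMA1*, with Spearman coefficients of 0.32, 0.25 and 0.25 over 310 cells, among 2867 genes detected in at least 50% of them. Across other cells they were *SERPINE2*, *CHAD* and *CCDC80*, at 0.18, 0.14 and 0.14 over 5364 cells. *CLU* was most like *MT1E*, *MT2* and *SPARC* in NCs (0.41, 0.39 and 0.36) and like *SCARA3*, *SOD3* and *SERPING1* in other cells (0.44, 0.40 and 0.38). *APOD* was most like *POLD2*, *RBFOX3* and *TKT* in NCs (0.24, 0.23 and 0.22), and *PLTP* like *TGFBI*, *ESF1* and *MED13* (0.25, 0.25 and 0.22). *APOD* in other cells was most like *SERPING1*, *ECRG4* and *FBLN7*, at 0.28, 0.26 and 0.25. *PLTP* in other cells was most like *CILP*, *FMOD* and *CRTAC1*, at 0.22, 0.21 and 0.21. *APOE* and *CLU* themselves had a coefficient of -0.03 in NCs and -0.15 in other cells.

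Genes that act beside the 6 were followed in lists, compared as log2 ratios of NCs over other cells against the median of 0.30 of all genes. Of 16 lipoprotein receptors and their adaptors, 5 were at least 2-fold higher in NCs, 2 were at least 2-fold lower and 9 were within 2-fold, beside 24.4% higher and 11.4% lower among all genes, with a median of 0.44, which was 0.21 without A952 and 0.22 without A954. The receptor gene *VLDLR* was 16.4-fold higher. It was higher in NCs under all 4 tags, at 46.6 against 4.33 rpm for A951, 74.3 against 6.75 for A952, 35.3 against 3.45 for A953 and 95.1 against 3.64 for A954. *SORL1*, a sorting receptor, was 5.52-fold higher, and *LSR* was at 20.7 against 9.42 rpm, but at 5.73 against 8.67 rpm under A953. *MYLIP*, which encodes a ubiquitin ligase, was 5.47-fold higher. The scavenger receptors *SCARB1* and *MSR1* were 3.36-fold and 9.14-fold lower, with *SCARB1* at 64.4 against 64.3 rpm under A953.

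Of 20 genes of cholesterol synthesis and its SREBP control, 9 were at least 2-fold higher and none was 2-fold lower, beside 24.4% and 11.4% of all genes, with a median of 0.93. *LSS*, which closes the sterol rings, was highest at 4.15-fold, followed by the transcription factor gene *SREBF1* at 3.30-fold, *INSIG1*, which holds SREBP back, at 3.05-fold and *PMVK* at 2.62-fold. These did not all hold in each tag. *SREBF1* under A951 was at 4.84 rpm in NCs and 8.33 rpm in other cells, *LSS* under A953 at 0.882 and 12.1 rpm, and *INSIG1* had no read in the NCs of A954. Without A952 the median of the list was 0.38, below that of the lipase list at 0.80.

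Of 12 genes of lipid transfer and cholesterol efflux, 5 were at least 2-fold higher, 1 was lower and 6 were within 2-fold, beside 24.4% and 11.4% of all genes, with a median of 0.50. The exporters *ABCA7*, *ABCG1* and *ABCA1* were 3.95-fold, 3.56-fold and 3.32-fold higher but scarce, with *ABCA1* at 12.9 against 3.88 rpm. Under A951, *ABCA7* and *ABCG1* were lower in NCs, at 0.574 against 0.868 rpm and 0.656 against 0.717 rpm, and *ABCA1* had no read in the NCs of A953 and A954. *NPC2*, which hands cholesterol out of lysosomes, was at 309 against 143.5 rpm, but at 64.8 against 144.1 rpm under A953, and *ABCA8* was 4.68-fold lower. Without A952 the median was -0.15.

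Of 8 lipases and lipase regulators, *MGLL*, which splits monoglycerides, was 7.13-fold higher and *ANGPTL4*, which inhibits *LPL*, was 8.16-fold lower. The other 6 were within 2-fold and the median was 0.71, with 24.4% of all genes higher and 11.4% lower. *MGLL* was lower in the NCs of A954, at 15.2 against 20.7 rpm. *ANGPTL4* was at 1.07 against 36.0 rpm under A951 and 3.99 against 49.5 rpm under A952. Of 9 genes of fatty acid uptake, binding and lipid droplets, the droplet protein gene *PLIN2* was 5.87-fold higher, *DGAT1* was 2.03-fold higher when pooled and *FABP3* was 4.41-fold lower, beside 24.4% and 11.4% of all genes, with a median of 0.03. *PLIN2* was at 132 against 5.14 rpm under A951 and 30.6 against 4.05 rpm under A952, but 0.441 against 10.7 rpm under A953 and without a read in the NCs of A954. *DGAT1* was higher in NCs under A952 alone, at 22.7 against 14.2 rpm, and under A951 it was at 8.93 against 13.1 rpm.

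Of the 8 apolipoproteins compared, *APOE* and *APOM* were at least 2-fold higher, *APOD*, *APOL2* and *CLU* at least 2-fold lower and 3 within 2-fold, beside 24.4% and 11.4% of all genes, with a median of -0.52, which was -1.25 without A952. *APOL2* was lower in NCs under A951, A952 and A954, but at 16.8 against 16.3 rpm under A953. *APOM* was at 6.80 against 5.36 rpm under A951 and 33.4 against 5.10 rpm under A952, so its 4.79-fold difference came from A952. Of 4 genes that lie near *APOE* on its chromosome, *BCAM* was 2.83-fold higher when pooled and *TOMM40*, *CLPTM1* and *NECTIN2* were within 2-fold. This stands beside 24.4% higher and 11.4% lower among all genes, and the median of the 4 was 0.21. The direction of *BCAM* came from A952, at 15.8 against 3.96 rpm, and under A951 it was at 0.328 against 6.04 rpm.

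**Figure D5:**
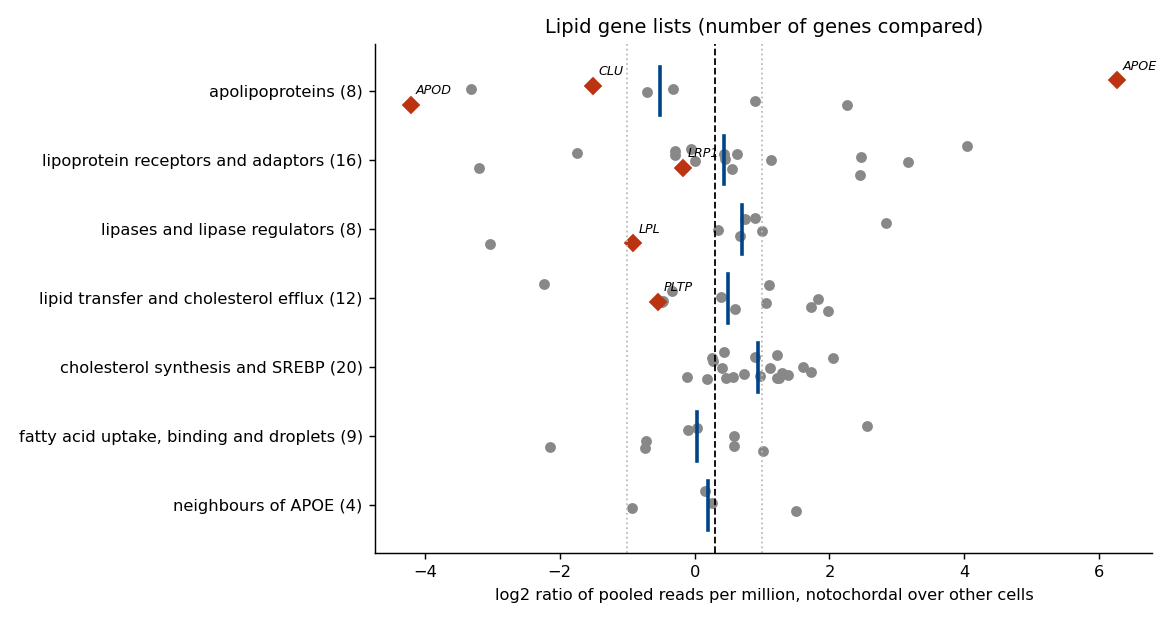
Log2 ratio of the pooled level in NCs over other cells for each gene of 7 lists (points; red diamonds are the 6 genes described here), with list medians as blue lines, the median of all 9961 genes as a dashed line and 2-fold limits as dotted lines. The cholesterol synthesis list had a median of 0.93, and *APOE* and *APOD* were the extremes among the apolipoproteins.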

How the data were processed

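The authors aligned TAS-seq reads with HISAT2 2.2.1, assigned them to genes with featureCounts 2.0.2 and summed them per cell with velocyto. The genome build is not given in the sources used here. The table that the authors deposited holds counts (whole reads, no molecular identifiers, no normalization) for each gene in each cell, so PCR copies are counted and reads can be shared between near-identical genes. Of the values above 0, 32.2% were 1 read. A second table with 1358 cell columns matches no sample label and was not used.

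Tagged cells were used without further limits, except for clustering, which used the 5653 cells with 200 to 9000 genes and under 5% mitochondrial reads (scale factor 1000000, 5000 variable genes, 30 principal components, resolution 0.27, cell cycle scores regressed out; Seurat 5.3.0, R 4.3.3). Doublets by tag were removed, and no other doublet caller was run. Levels were pooled per group in Python 3.11.15 with scipy 1.17.1. In a ratio, a group under 3 reads was set to 3. Shares have Clopper-Pearson intervals, levels exact Poisson intervals and ratios exact conditional binomial intervals. The calculation was tested on simulated counts that held counting error alone. Beyond depth, the simulated cells of a group did not differ in level, and no PCR copies were simulated, so the test does not cover these.

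The genes and lists were chosen with earlier results of these data known, and lists are described by counts and medians only. Named genes were the listed members and markers, up to 4 list genes past 2-fold in each direction, the 3 genes most like *APOE*, *CLU*, *APOD* and *PLTP* in each group, and the 5 extreme genes in each direction. Beside them, *C3orf49*, *LSR*, the list genes within 2-fold and the leading genes of clusters were named after their values were seen. Alternatives were other gates, limits on cells, summaries over cells, thinning, centring, filters, folds, resolutions and leaving out each tag. Some listed genes are not reported here by name.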

Additional observations from a re-analysis of the deposited data

How the results depend on the processing

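The direction of *APOE*, *APOD*, *CLU*, *PLTP* and *LRP1* between NCs and other cells was the same under all 12 or 13 alternatives run for each. The log2 ratio of *APOE* was 5.66 with a gate of 1 read of each gene, 5.79 with 20 reads, 6.79 with 5 reads of either gene, 6.98 against other cells with no read of either gene, 5.95 from means over cells, 10.04 from medians over cells plus 1 rpm, 6.00 after thinning and 5.96 after centring. It was 6.35 without A951, 6.46 without A952, 6.10 without A953 and 5.74 without A954. The log2 ratio of *APOD* was -2.02 with the gate of 1 read and -2.01 with 5 reads of either gene, and that of *CLU* was -0.87 with the gate of 1 read, within 2-fold. *LPL* reversed to 0.51 without A952, and passed 2-fold lower without A951, at -1.46, and without A954, at -1.06. Among the tags left out, only A952 took *PLTP* past 2-fold lower, at -1.08. The apolipoprotein list had a median of -0.14 with 5 reads of either gene. The fatty acid list had a median of -0.27 after centring, -0.18 without A952 and -0.15 without A954. The list of genes near *APOE* reached -0.10 after centring, and the transfer and efflux list -0.15 without A952. Of 10133 genes compared with the gate of 1 read, 1675 were at least 2-fold higher and 497 lower. Of 13725 genes detected in 1% of cells, 3470 were higher and 1854 lower. Past 3-fold, 1287 of 9961 genes were higher and 647 lower. The share of other cells with 10 or more *APOE* reads was 10.6% in cells with no read of either gate gene, 8.65% after thinning and 11.1% without A952. The causes of these shifts were not tested. The classes by *APOE* reads were given 7 alternatives chosen after seeing the data, and under each of them *CNMD* and *COL2A1* were higher and *CLU* and *PRG4* lower at high *APOE*.

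Results rest on 1 library of pooled animals and on few NCs under A953 and A954. Enzymatic digestion, sorting and tag staining came before capture, and their effect on these genes was not tested.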
